A study of Mus musculus with 4 samples.

Results

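The 9 genes described here mark B cells and their precursors, and they were chosen by symbol: Cd79a, Cd79b, Blnk, Ms4a1, Cr2, Pax5, Ebf1, Vpreb1 and Igll1. They are 9 of the 17008 genes with a uniquely mapped read in any of 4 RNA sequencing libraries of mouse macrophages. The libraries are 1 from each combination of organ, bone marrow (BM) or spleen, and condition. Normal C57BL/6J mice, also of 6 to 8 weeks, stand for day 0. The T-ALL mice were C57BL/6J mice of 6 to 8 weeks that had received GFP+ leukemia cells from mice with T cell acute lymphoblastic leukaemia, without irradiation, and were taken at day 21. The hosts' own bone marrow was therefore not ablated by radiation. What drives the leukaemia, how macrophages were gated in the sort and how many mice were pooled is not given in the sources used here.

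B cells are made in bone marrow and move to spleen as they mature. Ebf1 and Pax5 are the transcription factors that set up and keep B cell identity. Vpreb1 and Igll1 encode the surrogate light chain, which stands in for the light chain on precursor cells and is switched off as they mature. Cd79a and Cd79b are the signalling chains of the B cell receptor from the precursor stage onward, and Blnk is the adaptor that links that receptor to its downstream enzymes. Ms4a1 (CD20) and Cr2 (complement receptor CD21, also the source of CD35 in mice) appear on later B cells. The macrophage label of the libraries does not name this lineage, although some of the genes, such as Blnk, are used by macrophages as well.

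Levels are CPM, the reads of a gene scaled to the size of its library. Totals ran from 8979385 to 9809676 reads, and 1 read was worth 0.101 to 0.112 CPM. With 1 library per group there is no replicate error, no test was run and no p-value is given. Parentheses after a ratio hold its exact 95% interval from the counts. All intervals and floors here stand for counting error alone, and PCR copies of a molecule make them too narrow. The words higher and lower, used of a call, mean that log2(CPM + 1) differed by 2-fold or more and that the larger value was no less than 10 CPM.

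Macrophage genes were read in all 4 libraries, and so were genes of other cells. The 12 macrophage markers summed to 3611 CPM in normal BM, 8767 CPM in T-ALL BM, 6702 CPM in normal spleen and 3367 CPM in T-ALL spleen, with none at 0. Lyz2 alone gave 2572, 5494, 946 and 241 CPM of these sums, so their order between organs is not that of most markers. In normal spleen 10 of the 12 were higher than in normal BM and 2, Lyz2 and Itgam, lower. Over all genes measured there, 16.1% were higher and 14.0% lower. The 7 granule genes of neutrophil precursors summed to 15179, 3797, 80.2 and 67.8 CPM in the same order, and the 10 T cell markers to 113, 537, 815 and 2548 CPM. Ddx3y, a Y-linked gene, gave 874 reads in T-ALL BM and 532 in T-ALL spleen but 0 in the normal libraries. Xist, the RNA that coats the silenced X, gave 8485 reads in normal BM, 6 in T-ALL BM, 7588 in normal spleen and 3846 in T-ALL spleen. Sex-linked RNA thus differed with condition and also between the T-ALL organs. The part of these differences in the results below was not tested. In such sorted bulk samples, fewer B cells and less RNA per B cell cannot be told apart.

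Together the 9 genes took 0.0374% (Wilson 95% interval 0.0362 to 0.0386) of the reads of normal BM and 0.0336% (0.0324 to 0.0348) of T-ALL BM. Their share was 0.211% in normal spleen (0.208 to 0.214) and 0.106% in T-ALL spleen (0.104 to 0.109). The summed level of the 9 was 372 CPM in normal BM, 339 CPM in T-ALL BM, 2121 CPM in normal spleen and 1056 CPM in T-ALL spleen. It was thus close between the BM libraries. The macrophage marker sum, mostly Lyz2 in BM, differed there (3611 CPM in normal and 8767 CPM in T-ALL BM). Between the spleens the summed level of the 9 differed, and so did the macrophage marker sum (6702 and 3367 CPM). All 9 had a read in each BM library and in T-ALL spleen, and 8 had one in normal spleen, where Igll1 had 0 reads. A count of 0 there allows up to 3 reads, or 0.336 CPM.

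**Figure D1:**
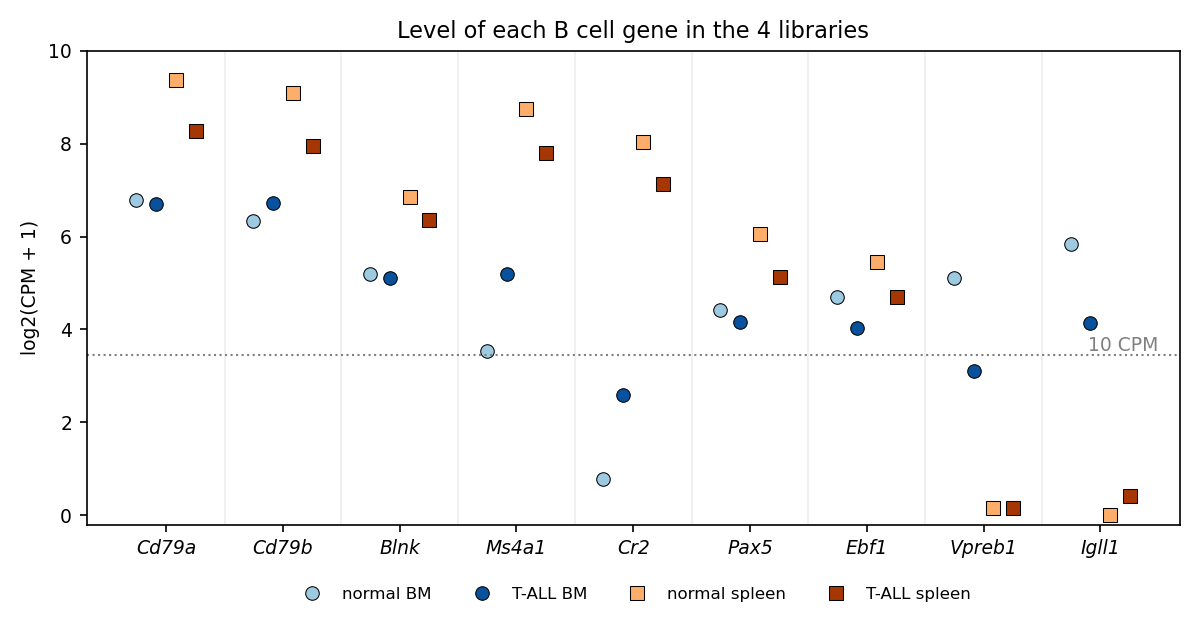
Level of each of the 9 genes, as log2(CPM + 1), in the normal BM, T-ALL BM, normal spleen and T-ALL spleen libraries, 1 point per library and the dotted line at 10 CPM. The 7 other genes stand highest in normal spleen, whereas Vpreb1 and Igll1 stand highest in normal BM and near 0 in both spleens.

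The surrogate light chain genes were found almost entirely in bone marrow, and less in leukaemia. Vpreb1 (Gene ID 22362) was at 33.6 CPM in normal BM, 7.62 CPM in T-ALL BM, 0.112 CPM in normal spleen and 0.108 CPM in T-ALL spleen. Igll1 (Gene ID 16136), which encodes the other part of the surrogate light chain, was at 56.2, 16.5, 0 and 0.325 CPM in the same order. Normal BM was the high library for both, and each spleen held at most 1 read of Vpreb1 and 3 reads of Igll1. In T-ALL BM, Vpreb1 was 4.41-fold lower than in normal BM (3.40 to 5.78) and Igll1 3.40-fold lower (2.84 to 4.09), with intervals that overlap. Per gene length, Igll1 was at 1.49 times the level of Vpreb1 in normal BM (1.29 to 1.71) and 1.92 times in T-ALL BM (1.44 to 2.59), with intervals that overlap. The deposited coverage, the share of a gene's length under reads, was 86.0% and 78.5% for Vpreb1 and 99.8% and 98.5% for Igll1 in normal and T-ALL BM. It was 6.35% for Vpreb1 in each spleen. Vpreb2, a near-identical copy of Vpreb1, had 31, 4, 0 and 0 reads in the same order of libraries. Reads that fit both copies are not in unique counts, so the level of Vpreb1 by itself is uncertain.

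Vpreb1 and Igll1 are neighbours on chromosome 16, with start sites 5270 bases apart on the same strand in RefSeq's annotation of GRCm38.p6. The 250 bases before their start sites are shown because these genes were lower together in T-ALL BM. Those of Cd79a, whose ratio between the BM libraries was near 1, and of Cr2, whose ratio was above 1 without a call, are shown beside them. Sequences are RefSeq's (GRCm38.p6), 5′ to 3′ along the gene's strand, and capitals mark CAGGTG or its reverse complement CACCTG, an E-box of the kind bound by E proteins such as E2A.
Vpreb1 (chr16:16869256-16869505, minus strand): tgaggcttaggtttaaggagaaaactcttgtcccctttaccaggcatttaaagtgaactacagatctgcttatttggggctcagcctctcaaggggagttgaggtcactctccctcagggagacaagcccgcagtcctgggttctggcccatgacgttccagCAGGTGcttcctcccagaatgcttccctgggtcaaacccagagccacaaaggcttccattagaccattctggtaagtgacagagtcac
Igll1 (chr16:16863986-16864235, minus strand): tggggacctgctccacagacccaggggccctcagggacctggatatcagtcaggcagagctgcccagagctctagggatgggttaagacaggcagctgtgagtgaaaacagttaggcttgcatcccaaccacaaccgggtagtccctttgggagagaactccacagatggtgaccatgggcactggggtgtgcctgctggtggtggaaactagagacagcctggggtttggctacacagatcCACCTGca
Cd79a (chr7:24897247-24897496, plus strand): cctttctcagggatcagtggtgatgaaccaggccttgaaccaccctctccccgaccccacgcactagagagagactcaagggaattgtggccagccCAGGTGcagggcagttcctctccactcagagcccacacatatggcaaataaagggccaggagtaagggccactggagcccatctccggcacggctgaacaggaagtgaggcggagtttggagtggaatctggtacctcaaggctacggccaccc
Cr2 (chr1:195176720-195176969, minus strand): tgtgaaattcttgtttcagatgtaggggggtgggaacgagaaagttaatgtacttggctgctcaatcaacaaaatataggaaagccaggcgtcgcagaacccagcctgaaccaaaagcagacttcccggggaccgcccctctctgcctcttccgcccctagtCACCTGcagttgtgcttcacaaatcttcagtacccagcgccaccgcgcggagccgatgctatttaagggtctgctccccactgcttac
Each of these windows holds 1 such match. Of the 9 genes, 7 had an entry, with 8 windows since Ebf1 has an alternative start. CAGGTG on either strand was found in 5 of the 8, those of Vpreb1, Igll1, Cd79a, Cr2 and Blnk, against 17.2% of all 32851 windows of this length. Of these 5, Vpreb1 and Igll1 were called lower in T-ALL BM and the other 3 were not called. The octamer ATGCAAAT on either strand was found in the window of Blnk, and in 1.60% of all windows. CCCNNGGG, the core of the motif of EBF proteins, which reads the same on both strands, was found in the window of Igll1 and in 11.8% of all. With the T before it and the A after it that complete the motif, it was found in 0 of the 8 and in 0.779% of all. GAGGAAGT, of PU.1 and related factors, was found on neither strand in the 8 and in 2.44% of all. These are matches of letters and not binding sites.

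The late B cell genes ran the other way in bone marrow. Ms4a1 (Gene ID 12482) was at 10.6 CPM in normal BM, 35.7 CPM in T-ALL BM, 425 CPM in normal spleen and 222 CPM in T-ALL spleen. It was 3.39-fold higher in T-ALL BM than in normal BM (2.71 to 4.26). Cr2 (Gene ID 12902) was at 0.710, 5.04, 262 and 139 CPM in that order, from 7, 47, 2341 and 1281 reads. Its ratio of T-ALL BM to normal BM was 7.10 (3.19 to 18.6), but at 5.04 CPM it stayed under the minimum and is not called. Both genes thus had their lowest value in normal BM and their highest in normal spleen. Reads covered 5.53% of the length of Cr2 in normal BM and 32.1% in T-ALL BM, against 99.5% in each spleen.

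Follicular dendritic cells of the spleen also make Cr2. Of 5 genes of those cells and of lymphoid stroma, Cxcl13 had at most 5 reads in any library, Madcam1 at most 3 and Sox9 at most 1. Clu had 70 reads in normal BM, 13 in T-ALL BM, 27 in normal spleen and 15 in T-ALL spleen. Mfge8, which macrophages express too, was at 31.9, 29.1, 14.8 and 35.6 CPM in that order and was called higher in T-ALL spleen. The whole list summed to between 18.8 and 39.0 CPM, and its part in the level of Cr2 was not tested.

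The receptor chains and their adaptor differed by less than 2-fold between the BM libraries, and the chains were lower in leukaemic spleen. Cd79a (Gene ID 12518) was at 109.6 CPM in normal BM, 104 CPM in T-ALL BM, 665 CPM in normal spleen and 309 CPM in T-ALL spleen. Its T-ALL to normal ratio was 0.946 in BM (0.867 to 1.03), and it was 2.15-fold lower in T-ALL spleen (2.06 to 2.25). Cd79b (Gene ID 15985) was at 79.7, 105, 546 and 247 CPM in the same order. It had a ratio of 1.31 in BM (1.19 to 1.44), under 2-fold, and was 2.21-fold lower in T-ALL spleen (2.10 to 2.33).

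The balance of these partner chains was not the same in all libraries. Per gene length, Cd79a was at 1.28 times the level of Cd79b in normal BM (1.16 to 1.40), 1.13 times in normal spleen (1.09 to 1.18) and 1.16 times in T-ALL spleen (1.10 to 1.23). In T-ALL BM it was at 0.921 times (0.842 to 1.01), an interval that overlaps none of the other 3. Blnk (Gene ID 17060) was at 35.7 CPM in normal BM, 33.4 CPM in T-ALL BM, 115 CPM in normal spleen and 80.4 CPM in T-ALL spleen. Its ratio was 0.935 in BM (0.800 to 1.09), and it was 1.42-fold lower in T-ALL spleen (1.29 to 1.57), which does not reach 2-fold. The level of Blnk per gene length was 0.109 of that of Cd79a in normal spleen (0.102 to 0.116) and 0.165 in T-ALL spleen (0.152 to 0.179). Against Cd79a, Blnk was thus higher in the leukaemic spleen. Blnk is also known in other cells, plasmacytoid dendritic cells and macrophages among them. Of 7 plasmacytoid dendritic cell markers, 3 were lower and 1 higher in T-ALL spleen, and the list summed to 425 and 283 CPM in normal and T-ALL spleen. Over all genes measured, 11.0% were lower and 10.3% higher in T-ALL spleen. The 1 higher of 7, Ccr9 (from 14.4 to 53.8 CPM), is thus near the background, whereas 3 lower of 7 is a larger share than 11.0%. That difference was not tested.

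The lineage transcription factors differed by less between libraries than the late genes. Pax5 (Gene ID 18507) was at 20.5 CPM in normal BM, 16.8 CPM in T-ALL BM, 65.2 CPM in normal spleen and 33.9 CPM in T-ALL spleen. Ebf1 (Gene ID 13591) was at 25.2, 15.3, 43.0 and 24.9 CPM in the same order. In BM the T-ALL to normal ratio was 0.822 for Pax5 (0.663 to 1.02) and 0.610 for Ebf1 (0.493 to 0.752), so Ebf1 was lower beyond counting error without reaching 2-fold. In T-ALL spleen Pax5 was 1.92-fold lower (1.67 to 2.21) and Ebf1 1.73-fold lower (1.46 to 2.04). Per gene length, Pax5 was at 1.52 times the level of Ebf1 in normal BM (1.25 to 1.83), 2.04 times in T-ALL BM (1.62 to 2.58), 2.83 times in normal spleen (2.48 to 3.22) and 2.53 times in T-ALL spleen (2.13 to 3.02). The balance of the factors thus differed between the normal organs beyond counting error, with Pax5 the higher in each library.

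Per gene length, on the authors' RPKM scale, the order of the genes was similar in both spleens and different in the marrows. In normal spleen, Cd79a stood first at 499 RPKM, then Cd79b at 441, Ms4a1 at 206, Blnk at 54.4, Pax5 at 53.7, Cr2 at 42.0 and Ebf1 at 19.0 RPKM. The first 7 places were held in the same order in T-ALL spleen, from 235 RPKM for Cd79a to 11.2 RPKM for Ebf1. In normal BM, Igll1 at 64.9 RPKM was level with Cd79b at 65.0 RPKM, behind Cd79a at 83.0 RPKM, and Vpreb1 followed at 43.7 RPKM. Ms4a1 at 5.15 RPKM was next to last there, before Cr2 at 0.115 RPKM. In T-ALL BM, Igll1 at 18.8, Ms4a1 at 17.2, Blnk at 15.8 and Pax5 at 13.8 RPKM held the places after Cd79b (84.1 RPKM) and Cd79a (77.4 RPKM). Neighbours in that run of 4 did not differ beyond counting error, and neither did Cd79b and Cd79a there or Blnk and Pax5 in normal BM and normal spleen.

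Across all 9 genes, the comparison of T-ALL BM with normal BM gave 1 higher gene (Ms4a1) and 2 lower genes (Vpreb1 and Igll1), with 8 of the 9 at 10 CPM or more. Over the 9716 genes measured, 8.01% were higher and 1.03% were lower. The median log2 fold of the 9 was -0.09, against -0.04 over all genes measured, with members from -2.00 (Vpreb1) to 1.82 (Cr2). A median near 0 thus came from genes of precursors that were lower, genes of later B cells with higher values, and 5 genes between them.

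**Figure D2:**
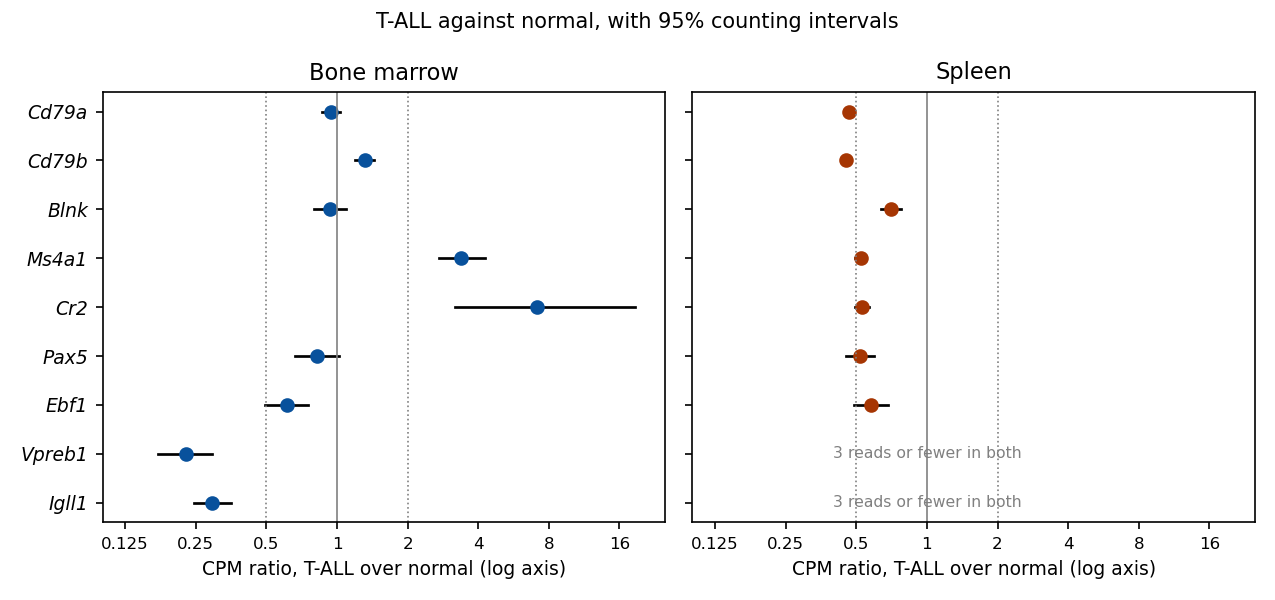
Ratio of CPM in T-ALL to normal for each gene, in bone marrow (left) and spleen (right), on a log axis, with lines for 95% counting intervals and dotted lines at 0.5 and 2. In bone marrow the ratios run from 0.227 for Vpreb1 to 7.10 for Cr2, while in spleen the 7 genes with enough reads lie between 0.452 and 0.702.

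In spleen, 0 of the 9 were higher in T-ALL and 2 were lower (Cd79a and Cd79b), with 7 at 10 CPM or more. Of the 9774 genes measured, 10.3% were higher and 11.0% were lower, and read against that share, 2 of 9 is not a result about these genes as a set. The median log2 fold of the 9 was -0.91, against -0.08 over all genes measured. Ms4a1, Pax5 and Cr2 lay just inside 2-fold, with log2 folds of -0.93, -0.92 and -0.91, beside -1.10 for Cd79a and -1.14 for Cd79b. All 7 genes with 10 CPM or more had ratios below 1, by 1.42-fold to 2.21-fold, each with its counting interval below 1. Only Cd79a and Cd79b among them were called. The share of all genes measured with such an interval was not counted, so this too is not a result about the set. Of the 12 macrophage markers 7 were lower too (median -1.02), and 8 of the 10 T cell markers were higher (median 1.28). No p-value can be given for these differences.

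The make-up of the B cell reads is a measure within each library and does not depend on the scaling between libraries. Longer genes give more reads, so shares are compared between libraries and not between genes. Vpreb1 and Igll1 made up 24.2% of the reads of the 9 genes in normal BM (22.8 to 25.6) and 7.13% in T-ALL BM (6.28 to 8.08). They made up 0.00527% in normal spleen (0.000931 to 0.0299) and 0.0410% in T-ALL spleen (0.0159 to 0.105). Ms4a1 and Cr2 made up 3.03% in normal BM (2.52 to 3.64), 12.0% in T-ALL BM (11.0 to 13.2), 32.4% in normal spleen (31.7 to 33.1) and 34.2% in T-ALL spleen (33.2 to 35.1). Cd79a and Cd79b stayed between 50.9% and 61.5% in all 4. T-ALL BM thus lay between normal BM and the spleens in its shares of both precursor and late genes. Between the spleens the largest difference was that of Cd79a and Cd79b, at 57.1% (56.4 to 57.8) in normal and 52.6% (51.6 to 53.6) in T-ALL spleen.

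**Figure D3:**
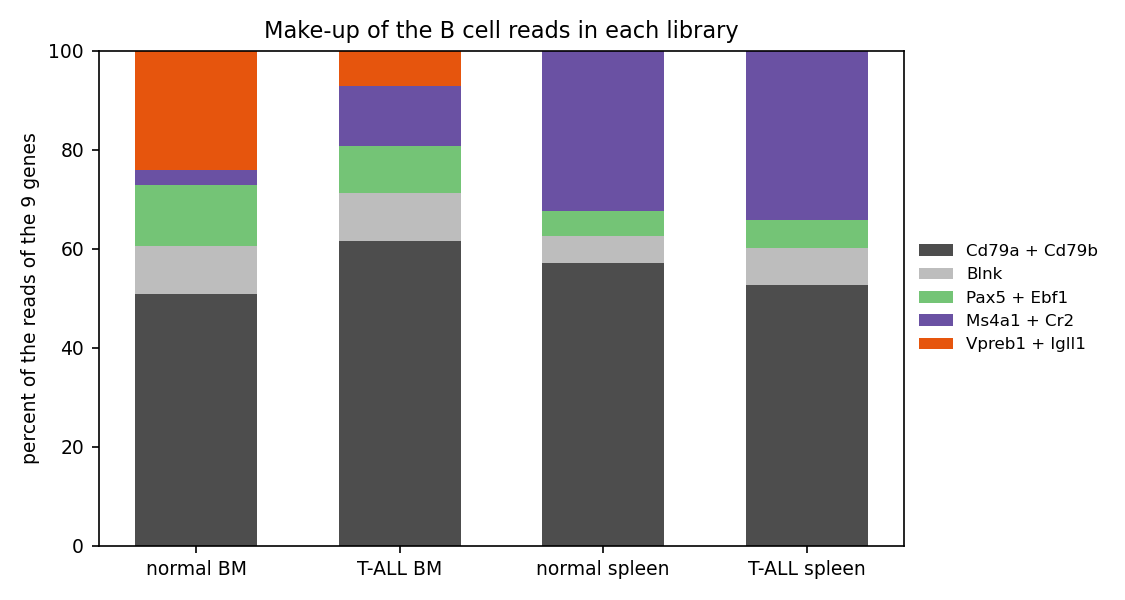
Share of the reads of the 9 genes taken by Cd79a + Cd79b, Blnk, Pax5 + Ebf1, Ms4a1 + Cr2 and Vpreb1 + Igll1, as stacked bars in percent for the 4 libraries. The share of Vpreb1 + Igll1 goes from 24.2% in normal BM to 7.13% in T-ALL BM, and that of Ms4a1 + Cr2 from 3.03% to 12.0%.

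Between organs, the late genes Ms4a1 and Cr2 were higher in spleen, in health and in leukaemia. Vpreb1 and Igll1 had their larger values in bone marrow in both conditions, though Vpreb1 was not called in T-ALL mice. In normal mice 6 of the 9 were higher in spleen and 2 lower, with 9 at 10 CPM or more, where 16.1% of the 10072 genes measured were higher and 14.0% lower. Cr2 was 369-fold higher in spleen (179 to 918) and Ms4a1 40.3-fold higher (33.2 to 49.5), against 6.07-fold for Cd79a (5.69 to 6.48), 6.84-fold for Cd79b (6.35 to 7.39), 3.21-fold for Blnk and 3.18-fold for Pax5. Ebf1 was 1.71-fold higher (1.45 to 2.01) and not called. Igll1 was at least 167-fold lower in normal spleen, against a floor of 3 reads in that library (the exact counting interval allows 136-fold), and Vpreb1, with 1 read there, was 300.2-fold lower (53.5 to 11893). The size of the organ difference thus ran from under 2-fold for Ebf1 to over 100-fold for Cr2.

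In T-ALL mice 5 of the 9 were higher in spleen (Cd79a, Cd79b, Blnk, Ms4a1 and Cr2) and 1 was lower (Igll1). Of the 9852 genes measured there, 5.44% were higher and 11.0% lower. Cr2 was 27.5-fold higher (20.6 to 37.6) and Ms4a1 6.22-fold higher (5.53 to 7.00). Pax5 had a log2 fold of 0.97, just short of the threshold. Vpreb1 was 70.4-fold lower (12.2 to 2819) but did not reach 10 CPM in either library. The median log2 fold of the 9 between organs was 1.65 in normal and 1.23 in T-ALL mice, against -0.04 and 0.01 over all genes measured. The difference between those medians was not tested, and each organ comparison shares its libraries with the T-ALL comparisons above.

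Other B-lineage genes were read from lists, with the same calls. Of 12 surface genes of mature B cells, 5 were higher and 0 lower in T-ALL BM (median log2 fold 0.55). Fcrl1 went from 4.16 to 18.9 CPM, Fcer2a (CD23, of follicular B cells) from 3.65 to 13.0 CPM, and Cd180 from 34.1 to 115 CPM, the last of which macrophages express as well. In T-ALL spleen 8 of the 12 were lower and 0 higher (median -1.09), among them Tnfrsf13c, the receptor for the survival factor BAFF, from 143 to 56.6 CPM, Fcmr, the IgM Fc receptor, from 350.1 to 149 CPM, and Cd180 from 220.5 to 96.4 CPM. In normal mice 11 of the 12 were higher in spleen than in BM (median 3.34), led by Fcer2a, Fcmr and Cxcr5, and in T-ALL mice 8 of 12 (median 1.47). Over all genes measured, 8.01% were higher in T-ALL BM than in normal BM, and 11.0% were lower in T-ALL spleen than in normal spleen. Between organs, 16.1% were higher in spleen in normal mice and 5.44% in T-ALL mice.

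Genes of receptor signalling and B-lineage transcription factors are shared with myeloid cells to a larger extent. Of 14 signalling genes, 2 were higher in T-ALL BM, the scaffold Bank1 from 11.2 to 29.8 CPM and the kinase Lyn from 186 to 419.9 CPM, with 0 lower and a median of 0.35. The share over all genes measured was 8.01% higher. In T-ALL spleen, where 11.0% of all genes measured were lower, 5 of the 14 were lower and 0 higher (median -0.92), with Blk, a kinase of B cells, going from 173 to 73.0 CPM, Plcg2 from 368 to 156 CPM and the inhibitory receptor Fcgr2b from 68.0 to 31.5 CPM. Of 12 transcription factors, 1 was higher in T-ALL BM, Pou2f2 (OCT2), from 25.9 to 77.4 CPM (median of the list 0.25), a share close to that over all genes. In T-ALL spleen 5 of 12 were lower and 0 higher (median -0.76), with Bcl11a from 174 to 61.6 CPM, Spib from 336 to 137 CPM and Spi1 (PU.1) from 306 to 139 CPM. Spi1, Lyn, Plcg2 and Fcgr2b are genes that macrophages use, so these counts are not specific to B cells.

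Precursor genes that B and T cells share had mixed values. Of 6 such genes, 1 was higher in T-ALL BM, Lef1, from 39.6 to 137 CPM, and 0 were lower (median 0.08). Over all genes measured 8.01% were higher in that comparison, so 1 of 6 is near the background. The recombinase gene Rag1 was at 26.3 and 49.7 CPM and Dntt, the enzyme that adds bases at gene joins, at 63.6 and 61.5 CPM in normal and T-ALL BM. Rag2 was at 4.26 and 2.47 CPM, Il7r, the receptor for interleukin-7, at 36.0 and 27.0 CPM and Sox4 at 98.2 and 114 CPM. In normal spleen 3 of the 6 were lower than in normal BM and 0 higher (median -2.65), with Dntt at 2.01 CPM, Rag1 at 1.79 CPM and Sox4 at 12.3 CPM, and the surrogate light chain genes were lower there too. In T-ALL spleen 3 of the 6 were higher and 0 lower (median 2.05), with Dntt going from 2.01 to 38.9 CPM, Sox4 from 12.3 to 149.5 CPM and Lef1 from 58.3 to 617 CPM. Vpreb1 and Igll1 were at 3 reads or fewer in that library. Over all genes measured, 14.0% were lower in normal spleen against normal BM. In T-ALL spleen against normal spleen, 10.3% were higher. Between the organs of T-ALL mice, 1 of the 6 was higher in spleen, Lef1, and 1 was lower, Rag1 (median -0.18). Over all genes measured there, 5.44% were higher and 11.0% lower. Vpreb3, of the surrogate light chain family but also used by later B cells, was at 42.7 CPM in normal BM, 24.9 CPM in T-ALL BM, 20.0 CPM in normal spleen and 9.96 CPM in T-ALL spleen, and was not called in either T-ALL comparison.

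**Figure D4:**
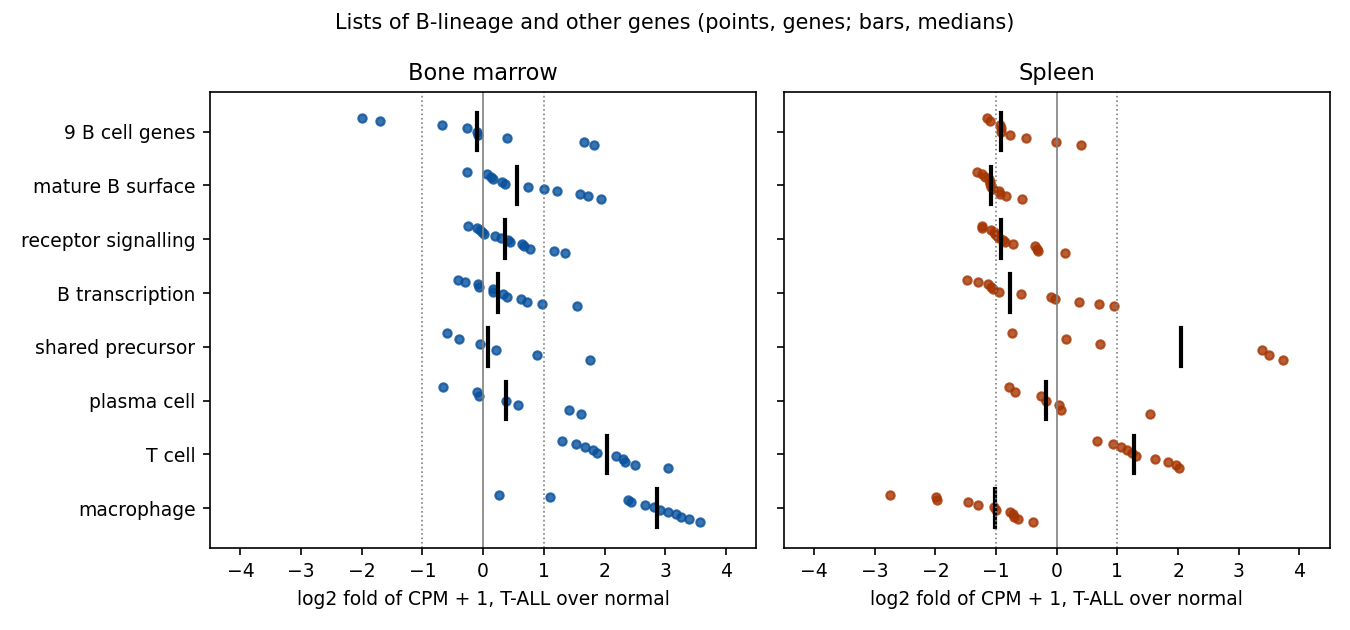
Log2 fold of CPM + 1, T-ALL over normal, for each gene (points) of 8 lists in bone marrow (left) and spleen (right), with bars at list medians and dotted lines at 2-fold. In spleen the medians of the 9 B cell genes, mature B surface genes and macrophage markers were -0.91, -1.09 and -1.02, whereas that of T cell markers was 1.28.

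Plasma cells are the last stage of the lineage. Of 7 of their genes, 1 was higher in T-ALL spleen, Sdc1 (CD138), from 15.7 to 47.4 CPM, and 0 were lower (median -0.18). Over all genes 10.3% were higher and 11.0% lower there, so with 7 genes these counts are near the background. In T-ALL BM 2 of 7 were higher, Jchain, the joining chain of secreted IgM and IgA, from 79.4 to 244 CPM, and Prdm1 (BLIMP1) from 5.28 to 15.7 CPM (median 0.38). Of 5 marginal zone B cell genes, 3 were lower in T-ALL spleen, S1pr3 from 24.4 to 9.64 CPM, Cd1d1 from 58.6 to 24.0 CPM and Notch2 from 396 to 167 CPM (median -1.24). In T-ALL BM 2 of them were higher, Dtx1 from 3.55 to 146 CPM and Notch2 from 139 to 372 CPM (median 0.44), and both of these are also used outside B cells. The share over all genes measured was 8.01% higher in T-ALL BM. Of 5 immunoglobulin constant and light chain genes sought, none had a line, and they are not analysed here.

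The genes with the most similar profiles were found by the distance between log2(CPM + 1) values, centred on each gene's mean, over the 4 libraries and 9898 other genes. Among the 9 themselves, Cd79a and Cd79b lay 0.34 apart, Blnk and Pax5 0.36, and Vpreb1 and Igll1 0.90, while Cr2 and Igll1 lay 11.01 apart. Genes close to Cd79a included F2rl1 (0.20) and Blk (0.23), and genes close to Cd79b included Ccdc102a (0.21) and Vipr1 (0.22). For Blnk the nearest were Zcchc18 (0.15), Gimap7 (0.17) and Sdc4 (0.21).

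For Ms4a1 the nearest were C2 (0.31), Fcmr (listed as Faim3, 0.39) and Rasgrp3 (0.40). Cr2 had no gene as close, with Adamdec1 at 0.66, Adam23 at 1.12 and Hs3st2 at 1.20. Pax5 was nearest to Lysmd2 (0.06), Serpinb6b (0.20) and Man1a (0.22), and Ebf1 to Tnfrsf18 (0.10), Gga2 (0.15) and Ehd3 (0.18). Vpreb1 was nearest to Ptpru (0.49), Prom1 (0.50) and Ak4 (0.52), and Igll1 to Mogat2 (0.56), Cldn15 (0.62) and Ica1 (0.67). With 4 values per profile, the distances are a description only.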

How the data were processed

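Sorted macrophages of 2 organs and 2 conditions were sequenced, 1 library per group, with groups taken from sample titles. Per the file headers, the deposited tables give for each gene the counts of uniquely mapped reads, its length, its coverage in percent and its RPKM (reads scaled by gene length and library total). Genes without a line were set to 0. Which aligner, strand setting, build and annotation were used is not given in the sources used here. Overlapping and near-identical genes are therefore uncertain. The authors' coverage percent and RPKM were used as deposited.

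CPM came from the deposited counts and TMM factors of 0.991 to 1.01 (R 4.3.3, edgeR 4.0.16). Ratios are of CPM without a pseudocount, log2 folds use log2(CPM + 1), which understates the change of low genes, and the size rule is that of the report. No count model could be replicated, so none was fitted. The rule was tested on simulated counts with counting error alone, which cannot show how it fares with variation between mice. Symbols of 16 gene lists were matched to the files directly or through RefSeq names (GRCm38.p6), for 119 of 124 entries. From each list, up to 3 genes with the largest log2 fold past the rule are named, or the gene of highest level; for each of the 9 genes, the 3 nearest profiles, leaving out immunoglobulin segments and predicted genes. Chosen outside the rule with values known were Rag1, Rag2, Dntt, Il7r, Sox4, Vpreb2 and the follicular dendritic genes, and some genes that the rule selects are not reported here. Members and lists were chosen with earlier results of these data known. Alternatives were other scalings, pseudocounts and minimums and the RPKM. Scripts ran in Python 3.11.15 with scipy 1.17.1, numpy 2.4.6, pandas 2.3.3 and, for plots, matplotlib 3.10.9.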

Additional observations from a re-analysis of the deposited data

Results flagged for a closer look

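Cd79b, Ms4a1 and Cr2 differed from normal in opposite directions in the organs, each with counting intervals that exclude a ratio of 1. The T-ALL to normal ratio of CPM was 1.31 in BM and 0.452 in spleen for Cd79b. It was 3.39 in BM and 0.522 in spleen for Ms4a1. For Cr2 it was 7.10 in BM, from 7 and 47 reads, and 0.530 in spleen. With 1 library per group, the difference between organs was not tested.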

How the results depend on the processing

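Total-count and median-of-ratios scaling and pseudocounts of 0.1 and 5 CPM left the counts of called genes within 1.5 times and moved no median of the 9 beyond the counting interval of its middle gene. No called log2 fold changed sign under any alternative. The minimum set several counts. With a minimum of 1 CPM, 2 genes were higher in T-ALL BM than in normal BM, Cr2 joining Ms4a1, and 2 were lower in T-ALL spleen than in T-ALL BM, Vpreb1 joining Igll1. With a minimum of 50 CPM, 0 were higher and 1 was lower in T-ALL BM, 1 was lower in normal spleen than in normal BM, and 0 were lower in T-ALL spleen than in T-ALL BM. With the deposited RPKM, 2 were lower in T-ALL spleen than in T-ALL BM. Of 252 log2 folds of single genes under an alternative, 245 stayed within their counting interval and 7 did not, 5 of them with a pseudocount of 5 CPM and 2 with RPKM. A change of minimum cannot alter a log2 fold. The 36 folds under each minimum are thus among the 245 by construction. No replicate could be left out and no paired analysis was possible because each group has 1 library. Depth limits Vpreb1 and Igll1 in spleen and Cr2 in normal BM, at 7 reads or fewer.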
